A study of Mus musculus with 18 samples.

Results

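Retinoic acid is made from vitamin A inside the testis, and 9 genes of its synthesis, binding, degradation and reception were followed across 6 groups of mice: Rbp4, Rdh10, Rdh11, Aldh1a1, Aldh1a2, Crabp1, Cyp26b1, Rara and Rarg. They were chosen by name, as the rows of the deposited expression table with these symbols, which gave 9 of 20979 genes. All 9 had a mean of at least 1 FPKM (fragments per kilobase of transcript scaled to the mapped total) over the 18 libraries and so were among the 13105 genes tested. No member differed between groups past the adjusted threshold of 0.05 in any comparison. The widest differences were in Aldh1a1, which had its lowest group mean in mice given the high-fat diet with AOS, and in Rbp4, which had its highest group mean in the same mice.

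The series measured RNA from testis of ICR mice, an outbred strain, at 10 weeks of age, and asked whether FMT offsets effects of a high-fat diet on this organ. There were 6 groups of 3 libraries. The control mice have no further treatment in the labels, the AOS mice were given AOS at 10 mg/kg, and the HFD mice were given a high-fat diet. The remaining 3 groups also had the high-fat diet, together with AOS at 10 mg/kg (HFD-AOS), with FMT labelled as AOS at 10 mg/kg (HFD-AOSFMT), or with FMT labelled as control (HFD-conFMT). Both abbreviations, AOS and FMT, are kept as the labels write them. Whether the libraries of a group are from different mice is not stated, and the p-values therefore rest on a spread between libraries that may be technical.

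Retinol reaches the tubules bound to its carrier protein, is oxidised to retinal by retinol dehydrogenases and then to retinoic acid by retinal dehydrogenases. Retinoic acid binds nuclear receptors that sit on DNA as heterodimers with retinoid X receptors, and cytochrome P450 enzymes of the Cyp26 family break it down. In the mouse testis it is known as the signal that starts spermatogonial differentiation and entry into meiosis, partly through Stra8, and Leydig cells, Sertoli cells and germ cells hold different parts of the machinery.

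The libraries were alike in depth, as far as the values show it: the relative depth ranged from 0.924 to 1.06, and the absolute depth is unknown. Markers of spermatids, spermatocytes, Sertoli cells and Leydig cells were all detected, as the testis label calls for, and in these 4 lists 0 genes were at 0 in every library. The summed level of 7 epididymal markers was 168 FPKM in control 3 and 109 FPKM in HFD-conFMT 2, was 9.1 FPKM in HFD-conFMT 3, and was at most 2.87 FPKM in the other libraries. Most of it was Crisp1, at 159 FPKM in control 3 and 104 FPKM in HFD-conFMT 2. Adam7 was at 8.62 and 4.28 FPKM in these libraries. Lcn5, Lcn8, Lcn9, Defb20 and Spag11b were at most 0.48 FPKM in any library. Of these 7 markers, 1 (Lcn8) was listed at 0 in all 18 libraries.

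The levels of the 9 genes spanned a wide range. Aldh1a1 had the highest mean level over all libraries, 257 FPKM, which was above 96.8% of the genes tested. Rdh11 followed at 91.1 FPKM and Aldh1a2 at 50.8 FPKM. These 3 enzymes stood apart from the other 6 members, whose means lay between 1.96 FPKM for Rarg and 9.23 FPKM for Rdh10. The spread over the 18 libraries was also uneven, with a coefficient of variation of 26.0% for Aldh1a1 and 21.5% for Rbp4, against 4.46% for Aldh1a2 and 5.31% for Rdh10.

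**Figure D1:**
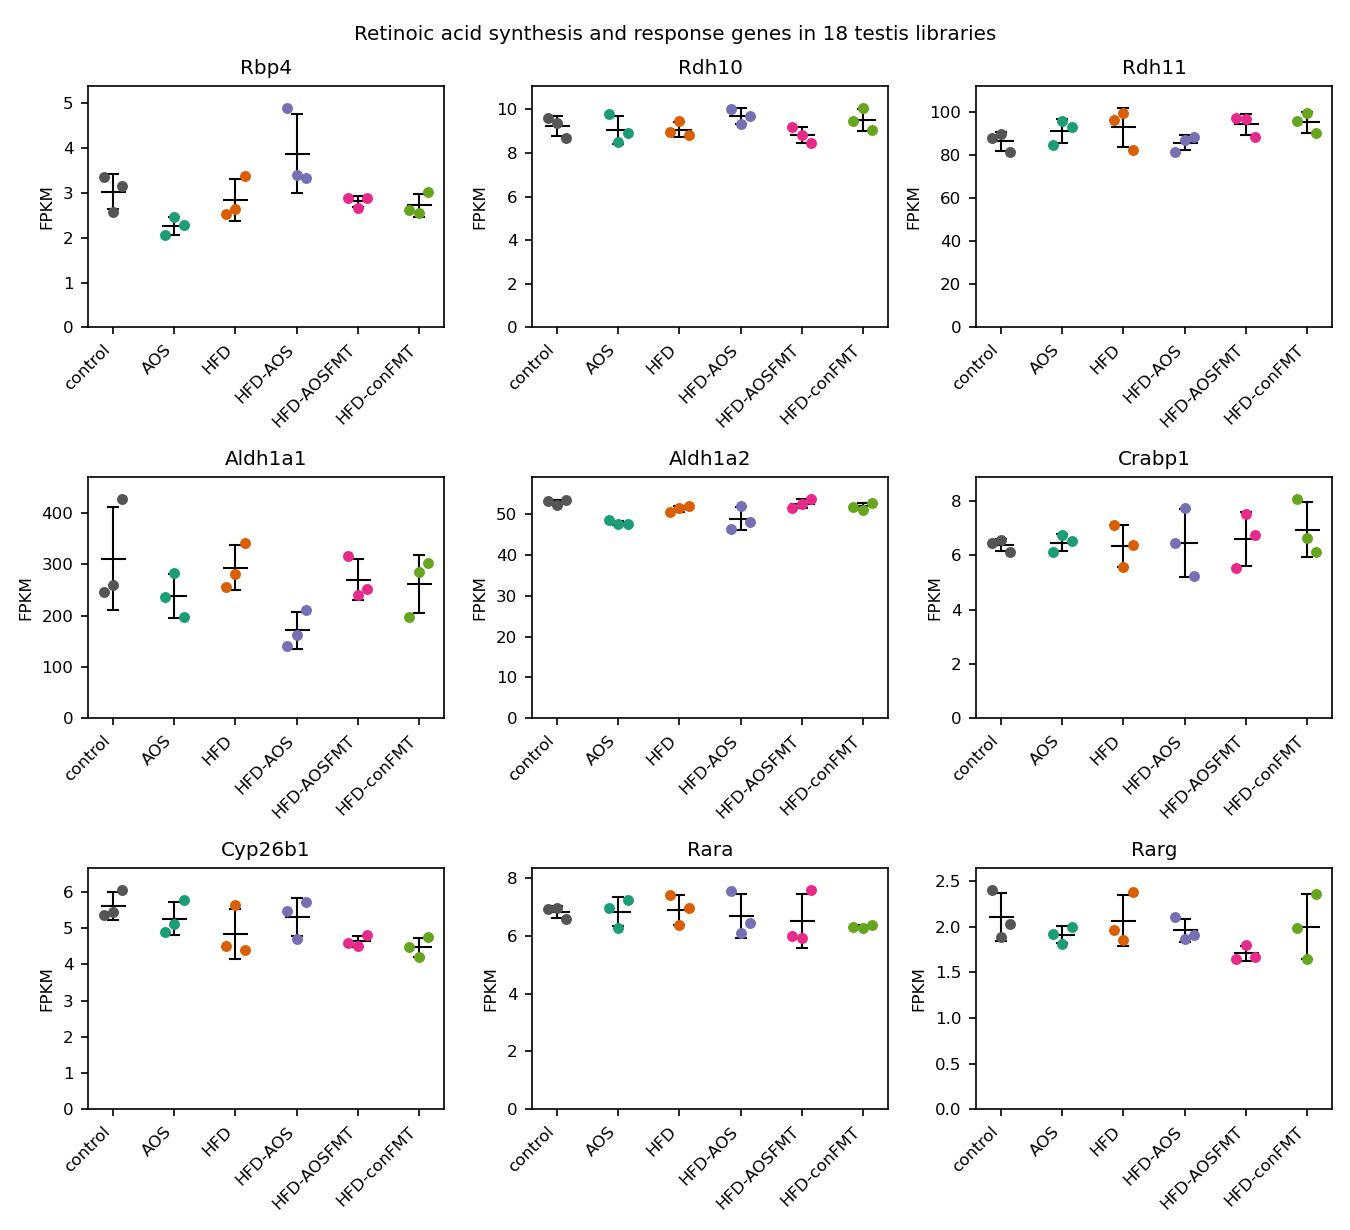
Level of each of the 9 genes in FPKM (vertical axes, each from 0) in the 18 libraries by group. Points are libraries, the long bar is the group mean and the error bar 1 SD (n = 3); Aldh1a1 lies between 142 and 211 FPKM in the 3 HFD-AOS libraries and between 256 and 341 FPKM in the 3 HFD libraries.

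Rbp4 encodes the carrier that brings retinol to tissues through the blood, and its gene lies at chr19:38116629-38125281 (mm10, minus strand). Its level was 3.34, 2.58 and 3.16 FPKM in the control libraries and 2.06, 2.46 and 2.29 FPKM in the AOS libraries. In the HFD libraries it was 2.52, 2.63 and 3.37 FPKM, and in the HFD-AOS libraries 4.89, 3.40 and 3.32 FPKM. All 3 AOS libraries were below all 3 controls, whereas the lowest HFD-AOS library was just under the highest HFD library. HFD-AOS 1 was the highest of all libraries for this gene.

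On the log2(FPKM + 1) scale, the AOS group was 0.30 lower than the control group for Rbp4 (difference -0.30, SE 0.116; limma adjusted p = 0.234). The HFD-AOS group was higher than the HFD group by 0.33 on the same scale (SE 0.116; limma adjusted p = 0.286), and by 0.19 without HFD-AOS 1. The AOS difference thus had opposite signs with and without the diet, and the interaction term that compares them was 0.63 (SE 0.164, 95% interval 0.28 to 0.98). That term had the lowest interaction p among the members, and its limma adjusted p over all genes was 0.521. In the limma interaction test 0 members passed the adjusted threshold, as did 0% of all genes tested. Rbp4 was the 1 member with an unadjusted p under 0.05 there, where 6.86% of all genes had one. In both FMT groups Rbp4 lay between 2.55 and 3.02 FPKM, inside the range of the HFD libraries. In bulk tissue, fewer cells of a type and less RNA per cell cannot be told apart, for this gene and all that follow.

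Rdh10 and Rdh11 encode enzymes of the short-chain dehydrogenase family that interconvert retinol and retinal. Rdh10 (chr1:16105774-16133734, plus strand) is known as the main retinol oxidase of the mouse embryo, and its level stayed between 8.46 and 10.06 FPKM in the 18 libraries. Rdh11 (chr12:79174337-79192293, minus strand), which can also reduce retinal, lay between 81.6 and 99.8 FPKM. Neighbouring group means overlapped in their libraries for both genes throughout the order of the 6 groups. Among the 6 comparisons, the widest difference of Rdh11 was between HFD-AOS and HFD, -0.11 on the log2(FPKM + 1) scale (SE 0.0693; limma adjusted p = 0.524). It was -0.06 without HFD 2 and -0.19 without HFD 3. For Rdh10 it was between HFD-AOSFMT and HFD-conFMT, -0.10 on that scale (SE 0.0583; limma adjusted p = 1.00), and -0.06 without HFD-conFMT 2.

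Aldh1a1 and Aldh1a2 encode retinal dehydrogenases, which carry out the irreversible step to retinoic acid. In the adult mouse testis, Aldh1a1 is known from Sertoli and Leydig cells and Aldh1a2 from germ cells. Aldh1a1 lies at chr19:20492715-20643465 (plus strand) and Aldh1a2 at chr9:71215789-71296243 (plus strand). Next to Aldh1a1, on the opposite strand at chr19:20692953-20727562, lies its close copy Aldh1a7. To show how near the copies can be, the 120 bases before a RefSeq start of each gene (RefSeq, GRCm38.p6) are printed 5′ to 3′ on the gene's own strand. Capitals mark the 15 positions where they differ, and 105 of 120 bases, or 87.5%, are the same. For Aldh1a1 the RefSeq start whose bases match Aldh1a7 best was taken, and it lies inside the gene span given above. The 87.5% is therefore a highest value.
Aldh1a1, chr19:20601848-20601967, plus strand: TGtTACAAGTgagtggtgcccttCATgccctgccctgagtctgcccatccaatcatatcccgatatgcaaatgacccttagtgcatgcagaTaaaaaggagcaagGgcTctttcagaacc
Aldh1a7, chr19:20727557-20727676, minus strand: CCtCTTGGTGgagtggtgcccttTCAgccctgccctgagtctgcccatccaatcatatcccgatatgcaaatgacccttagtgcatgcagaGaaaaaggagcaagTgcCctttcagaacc
Their transcripts also share sequence: 151 of the 2493 different stretches of 50 bases in Aldh1a1 transcripts, or 6.06%, occur in Aldh1a7 as well. How the authors' counting treated reads that fit both genes is not given in the sources used here, so the split of reads between them is uncertain.

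Aldh1a1 was at 246, 260 and 427 FPKM in the control libraries and at 235, 283 and 196 FPKM in the AOS libraries. In the HFD libraries it was at 256, 282 and 341 FPKM, and in the HFD-AOS libraries at 142, 162 and 211 FPKM. The HFD-AOSFMT libraries were at 316, 241 and 253 FPKM and the HFD-conFMT libraries at 197, 285 and 303 FPKM. All 3 HFD-AOS libraries were below all 3 HFD libraries, and 2 of them were the lowest of the 18. Control 3 was the highest library of all and lay well above its own group.

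The mean of Aldh1a1 was 172 ± 36.0 FPKM (SD, n = 3) in HFD-AOS against 293 ± 43.8 FPKM (SD, n = 3) in HFD, a difference of -41.4%. On the log2(FPKM + 1) scale this was -0.78 (SE 0.218, 95% interval -1.24 to -0.32), and its limma adjusted p was 0.222. Of the 9 members, 0 passed the adjusted threshold in HFD-AOS against HFD, where 0% of all genes tested passed. Rbp4 and Aldh1a1, 2 of the 9, had an unadjusted limma p under 0.05, as did 12.7% of all genes. Aldh1a1 was the 1 member whose 3 and 3 values did not overlap in this comparison, where 13.4% of all genes tested showed no overlap and 8.49% were lower without overlap. When each library was left out in turn, the difference stayed between -0.94 and -0.65. Its adjusted p ran from 0.165 to 0.681 over all alternatives. The same AOS dose without the diet gave a difference of -0.35 from the control group (SE 0.218; limma adjusted p = 0.448), which became -0.10 without control 3. The difference between HFD and control, -0.05, was 0.20 without control 3, so its sign rested on that library. The interaction of AOS with the diet was -0.43 for Aldh1a1 (SE 0.308; limma adjusted p = 0.825), -0.68 without control 3 and -0.28 without control 1.

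Marker levels of Leydig and Sertoli cells, which are known to hold Aldh1a1, and of other cells were set beside these values. The summed level of 7 Leydig markers was 4582, 3090 and 3457 FPKM in the HFD libraries and 4912, 2821 and 2834 FPKM in the HFD-AOS libraries. On the log2(FPKM + 1) scale, 5 of the 7 markers had a lower mean in HFD-AOS. HFD-AOS 1, the library with the least Aldh1a1, had the highest Leydig sum of all, of which Insl3, a Leydig hormone, made up 4367 FPKM. In the same library Star, Cyp11a1 and Hsd3b6, of steroid synthesis, were at 35.0, 97.1 and 14.9 FPKM. Their lowest HFD values were 42.6, 107 and 21.5 FPKM. Hsd3b1, also of steroid synthesis, was at 110 FPKM, above its highest HFD value of 99.9 FPKM. Cyp17a1 and Lhcgr lay inside their HFD ranges. The sum of 6 macrophage markers was 34.2 to 38.7 FPKM in HFD-AOS and 30.5 to 33.1 FPKM in HFD. The sum of 9 Sertoli markers stayed between 599 and 683 FPKM in all 18 libraries. Clu alone made up 451 to 527 FPKM of it, so the sum shows little of the others. Sox9 ran from 2.01 to 3.67 FPKM and Fshr from 0.89 to 1.84 FPKM. Of 8 Sertoli markers tested, 5 had a higher and 3 a lower mean in HFD-AOS than in HFD. The spermatid sum was 50971 to 58735 FPKM in HFD-AOS and 38913 to 51644.5 FPKM in HFD, with 6 of 7 markers higher in mean. The spermatocyte sum was 751 to 857 FPKM in HFD-AOS and 824 to 855 FPKM in HFD, with 2 of 8 markers higher and 6 lower. None of the Leydig, Sertoli, macrophage, spermatid or spermatocyte markers tested passed the adjusted limma threshold in HFD-AOS against HFD. The part of these cells in the Aldh1a1 values was not tested. Aldh1a7, from 0.95 to 3.39 FPKM, had between 0.301% and 2.40% of the Aldh1a1 level. It was at 3.39, 2.83 and 1.44 FPKM in HFD-AOS and at 1.34, 1.49 and 2.12 FPKM in HFD, so its means ran the other way (log2 difference 0.39, SE 0.206; limma adjusted p = 0.441). That difference was 0.22 without HFD-AOS 1 and 0.64 without HFD-AOS 3.

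**Figure D2:**
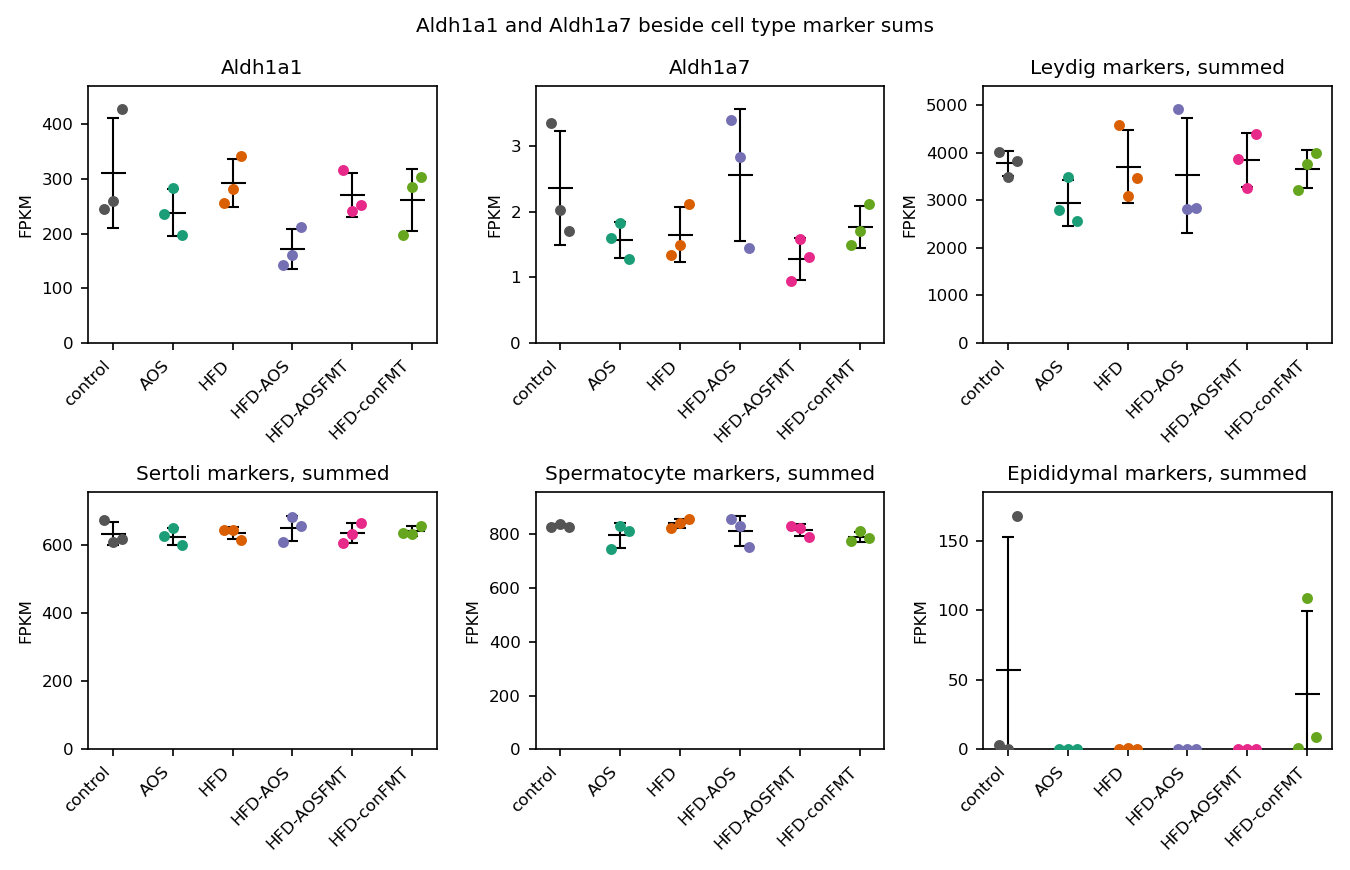
Levels of Aldh1a1 and of its copy Aldh1a7, and summed levels of the Leydig, Sertoli, spermatocyte and epididymal markers, in FPKM (vertical axes, each from 0) by group. Points are libraries and bars the mean and 1 SD (n = 3, error bars cut at 0). The Sertoli sums, mostly Clu, lie between 599 and 683 FPKM in every library, and Aldh1a1 spans 142 to 427 FPKM.

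Aldh1a2 varied far less. It was at 53.0, 52.2 and 53.4 FPKM in the control libraries and at 48.4, 47.4 and 47.4 FPKM in the AOS libraries. In HFD it was at 50.4, 51.3 and 51.8 FPKM, and in HFD-AOS at 46.4, 52.0 and 48.0 FPKM. Both FMT groups lay between 51.0 and 53.6 FPKM. The AOS libraries were all below the controls, and the HFD libraries were also all below the controls, by a smaller distance.

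The AOS mean of Aldh1a2 was 47.8 ± 0.537 FPKM (SD, n = 3) against 52.8 ± 0.616 FPKM (SD, n = 3) in the control group, a difference of -9.64%. On the log2(FPKM + 1) scale this was -0.14 (SE 0.0389), with a limma adjusted p of 0.122. That was the lowest adjusted p of any member in a comparison of 2 groups. With array weights, which let limma give noisier libraries less weight, it passed the threshold (difference -0.14, limma adjusted p = 0.0471). Over all alternatives the adjusted p of Aldh1a2 ran from 0.0471 to 0.329, and the number of all genes passing in this comparison ran from 0 to 240. Without control 3 the AOS difference was -0.14 for Aldh1a2 and -0.27 for Rbp4. In AOS against control, 0 of the 9 members passed in limma, where 0.0229% of all genes did, and 2 members had an unadjusted p under 0.05, where 15.8% of all genes had one. Rbp4 and Aldh1a2, 2 of the 9 members, had values without overlap, both lower in AOS, where 23.2% of all genes tested had no overlap in either direction and 15.2% were lower without overlap. The members' share was thus close to that of all genes. Beside this, the sum of spermatocyte markers was 745 to 832 FPKM in AOS and 828 to 840 FPKM in control, and the Leydig sum was 2563 to 3490 FPKM in AOS and 3497 to 4013 FPKM in control, with all 7 Leydig markers lower in mean. The spermatid sum was 52344 to 54002 FPKM in AOS and 41539 to 47456 FPKM in control, without overlap, with 5 of 7 markers higher. The blood sum (66.4 to 98.8 against 99.8 to 141 FPKM) and the endothelial sum (5.91 to 6.09 against 6.33 to 7.36 FPKM) were lower in AOS without overlap, and all 6 macrophage and all 5 peritubular markers had lower means. Of the markers in any of these lists, 0 passed the adjusted threshold in limma, and their part in the Aldh1a2 and Rbp4 values was not tested. In HFD against control, 0 members passed the adjusted threshold, as did 0% of all genes, and Aldh1a2 (log2 difference -0.05, SE 0.0389; limma adjusted p = 0.838) was the 1 member without overlap, against 12.5% of all genes tested in either direction and 7.35% in the lower direction.

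The ratio of the Aldh1a1 to the Aldh1a2 level, both per length, put these together in each library. It was lowest in HFD-AOS 1 at 3.05 and HFD-AOS 2 at 3.11, and highest in control 3 at 8.0. HFD-AOS 3, at 4.41, lay within the range of the other groups. Across the 18 libraries, Aldh1a1 and Aldh1a2 had the highest positive Pearson r between any members, 0.50 on the log2(FPKM + 1) scale. Larger in size were the negative r of Rdh11 with Rbp4 (-0.57) and with Rarg (-0.53). All are descriptions over libraries that share their groups.

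Crabp1 and Cyp26b1 limit free retinoic acid in different ways. Crabp1 (chr9:54764748-54773110, plus strand) encodes a cytosolic protein that binds it, and its level lay between 5.22 and 8.07 FPKM with all groups overlapping their neighbours. Its group means ran only from 6.35 FPKM in HFD to 6.94 FPKM in HFD-conFMT. Cyp26b1 (chr6:84571414-84593908, minus strand) encodes the enzyme that degrades retinoic acid and is known to keep germ cells of the fetal mouse testis out of meiosis.

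Cyp26b1 was at 5.36, 5.43 and 6.05 FPKM in the control libraries and at 4.90, 5.11 and 5.77 FPKM in the AOS libraries. In HFD it was at 4.5, 5.63 and 4.39 FPKM and in HFD-AOS at 5.48, 4.70 and 5.71 FPKM. HFD-AOSFMT had 4.58, 4.51 and 4.80 FPKM and HFD-conFMT 4.47, 4.21 and 4.74 FPKM. The 6 FMT libraries were all below the 3 control libraries, as were those of 9.4% of all genes tested, in a contrast that combines diet and FMT and was not fitted. HFD 2 lay inside the control range. The difference between HFD and control was -0.18 on the log2(FPKM + 1) scale (SE 0.0855; limma adjusted p = 0.736), -0.14 without control 3 and -0.28 without HFD 2. Cyp26b1 was the 1 member with an unadjusted limma p under 0.05 there, where 6.75% of all genes had one. Neither FMT group differed from HFD past the threshold for Cyp26b1 (log2 differences -0.05 and -0.09; limma adjusted p = 0.904 and 0.706), and without HFD 2 both differences changed sign, to 0.05 and 0.0064.

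Rara and Rarg encode the receptors that retinoic acid binds. Rara (chr11:98927818-98974942, plus strand) is known in the mouse testis from Sertoli cells and germ cells, and Rarg (chr15:102234938-102257517, minus strand) from spermatogonia. Rara lay between 5.92 and 7.58 FPKM, with group means from 6.31 FPKM in HFD-conFMT to 6.90 FPKM in HFD and overlap between all neighbouring groups. A short stretch of sequence, 10 of 4272 words of 50 bases, or 0.234% of the Rara transcripts, occurs in other genes. For the other members but Aldh1a1, 0 such words were shared.

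Rarg, the member of lowest level, was at 1.65, 1.80 and 1.67 FPKM in HFD-AOSFMT and at 1.96, 1.85 and 2.38 FPKM in HFD. The 2 groups did not overlap, but HFD-conFMT, at 1.98, 1.65 and 2.36 FPKM, reached as low as HFD-AOSFMT. The difference between HFD-AOSFMT and HFD was -0.18 on the log2(FPKM + 1) scale, which understates changes at such low levels (SE 0.0908; limma adjusted p = 0.551). It was -0.10 without HFD 3. In this comparison 0 members passed in limma, against 0.0229% of all genes, and 0 had an unadjusted p under 0.05, against 9.82% of all genes. Rarg was the 1 member without overlap, against 17.2% of all genes in either direction and 8.88% in the lower direction. In HFD-conFMT against HFD, 0 of 9 members passed in limma, as did 0% of all genes. At an unadjusted p under 0.05 there were 0 members, against 12.3% of all genes, and 0 members were without overlap, against 20.2%. Between HFD-AOSFMT and HFD-conFMT, the contrast of the donors' labels, 0 members passed in limma, against 0.00763% of all genes, 0 had an unadjusted p under 0.05, against 3.12%, and 0 were without overlap, against 10.1%. That last contrast gave differences between -0.14 for Rarg and 0.06 for Aldh1a1 on the log2 scale. For Rarg it was -0.23 without HFD-conFMT 2 and -0.05 without HFD-conFMT 3. For Aldh1a1 its sign depended on the libraries kept, from -0.13 to 0.18 when each was left out. The comparisons of HFD-AOS and of both FMT groups share the HFD libraries.

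**Figure D3:**
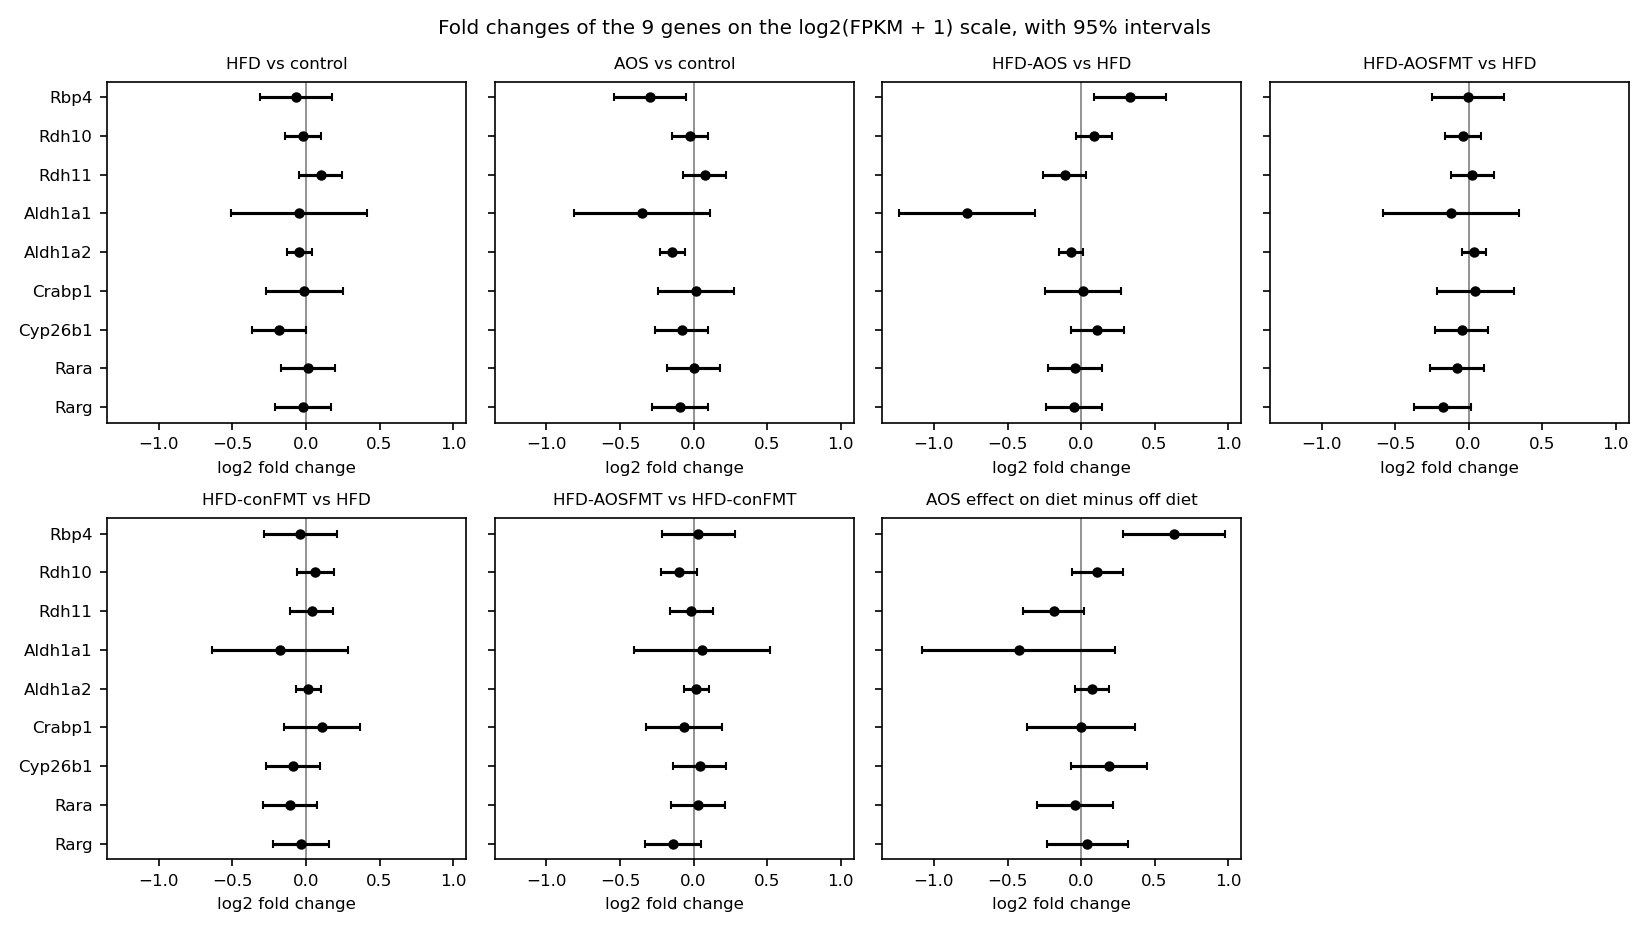
Log2 fold change (horizontal axes, on the log2(FPKM + 1) scale) of each of the 9 genes in the 6 comparisons of 2 groups and in the interaction, with 95% intervals from limma (3 libraries a group). Aldh1a1 in HFD-AOS against HFD, at -0.78, has the widest distance from 0, and no point passed the adjusted threshold.

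Over all 6 groups, the limma F test found 0 of the 9 members past the adjusted threshold, where 0.328% of all genes passed. Its adjusted p was 0.149 for Rbp4, 0.167 for Aldh1a2, 0.202 for Aldh1a1 and 0.259 for Cyp26b1, and these 4 had an unadjusted p under 0.05, as did 18% of all genes tested. For the other 5 members the adjusted p of the F test lay between 0.465 and 0.969. In the order of the 6 group means, neighbouring groups did not overlap in 2 of 45 places, against 3.07% of such places over all genes tested. These were between HFD-conFMT and AOS for Rbp4 and between AOS and HFD-AOSFMT for Rarg. Aldh1a1 ran from control through HFD, HFD-AOSFMT, HFD-conFMT and AOS to HFD-AOS, and Aldh1a2 from control through HFD-AOSFMT, HFD-conFMT, HFD and HFD-AOS to AOS. For both retinal dehydrogenases the groups given AOS itself came last by mean, though all neighbouring groups overlapped. How many of all genes tested have these groups last was not counted, so the shared order is a description only. The median difference of the 9 members was -0.08 in AOS against control, with 3 members higher and 6 lower. Over all genes tested the median was -0.03, and 40.2% were higher. In HFD-AOS against HFD the members' median was -0.04, with 4 higher and 5 lower. Over all genes it was -0.02, and 43.9% were higher. For HFD against control the members' median was -0.02, with 2 higher and 7 lower. Over all genes it was -0.01, and 45.2% were higher.

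The rest of the retinoid machinery was followed through 47 further genes, of which 29 reached a mean of 1 FPKM and were tested. None of the 29 passed the adjusted threshold in any comparison. In transport and storage, Dgat1, which esterifies retinol among other substrates, differed by -0.17 between HFD-AOS and HFD (SE 0.0593; limma adjusted p = 0.288), and by -0.09 without HFD-AOS 1. Stra6, the receptor for the retinol carrier, had group means from 2.62 to 3.09 FPKM, and Lrat, which stores retinol as esters, from 1.89 to 2.16 FPKM. Among the receptor cofactors, Ncor1 encodes a corepressor of unliganded receptors. It was at 23.6 ± 0.448 FPKM (SD, n = 3) in control and 20.2 ± 0.147 FPKM (SD, n = 3) in AOS, without overlap, a log2 difference of -0.22 (SE 0.0515; limma adjusted p = 0.108). The adjusted p was the lowest of the 29 in any comparison of 2 groups, and it was 0.0315 with array weights and 0.0468 without HFD-AOS 1. Over the alternatives, 0 to 240 of all genes passed in AOS against control. There, 5 of the 29 had no overlap, against 23.2% of all genes tested. By mean, Ncor1 was at 21.4 FPKM in HFD, 21.5 FPKM in HFD-AOS and 19.8 FPKM in both FMT groups. HFD also lay below control without overlap (log2 difference -0.14, SE 0.0515, limma adjusted p = 0.675). In that comparison 3 of the 29 had no overlap, against 12.5% of all genes. The interaction of AOS with the diet was 0.22 for Ncor1 (SE 0.0728, limma adjusted p = 0.641). Rxra, the heterodimer partner of highest level, was at 6.78 ± 0.335 FPKM (SD, n = 3) in control and 7.46 ± 0.166 FPKM (SD, n = 3) in AOS (limma adjusted p = 0.303).

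Of the genes known to respond to retinoic acid in the testis, 6 were tested and 0 passed the adjusted threshold in limma. Stra8, needed to enter meiosis, had group means between 7.55 FPKM in HFD-AOS and 9.07 FPKM in AOS. Rec8, a cohesin of meiotic chromosomes, had means between 37.4 and 41.2 FPKM. Its HFD-AOS libraries lay above the HFD libraries without overlap, by 0.11 on the log2 scale (SE 0.0460, limma adjusted p = 0.368). In that comparison 3 of the 29 pathway genes had no overlap, against 13.4% of all genes tested. Kit, a receptor of differentiating spermatogonia, had means between 4.49 and 6.10 FPKM. Its HFD-AOSFMT libraries lay narrowly below the HFD-conFMT libraries without overlap, at most 4.96 against at least 4.99 FPKM. The log2 difference was -0.18 (SE 0.146, limma adjusted p = 0.9996). Between these groups 3 of the 29 pathway genes had no overlap, against 10.1% of all genes tested. Meiosin, the partner of Stra8, had means between 5.46 and 6.19 FPKM. Sohlh1, a factor of spermatogonial differentiation, differed by 0.28 between HFD-AOSFMT and HFD-conFMT (SE 0.107; limma adjusted p = 1.00), and by 0.17 without HFD-conFMT 2.

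**Figure D4:**
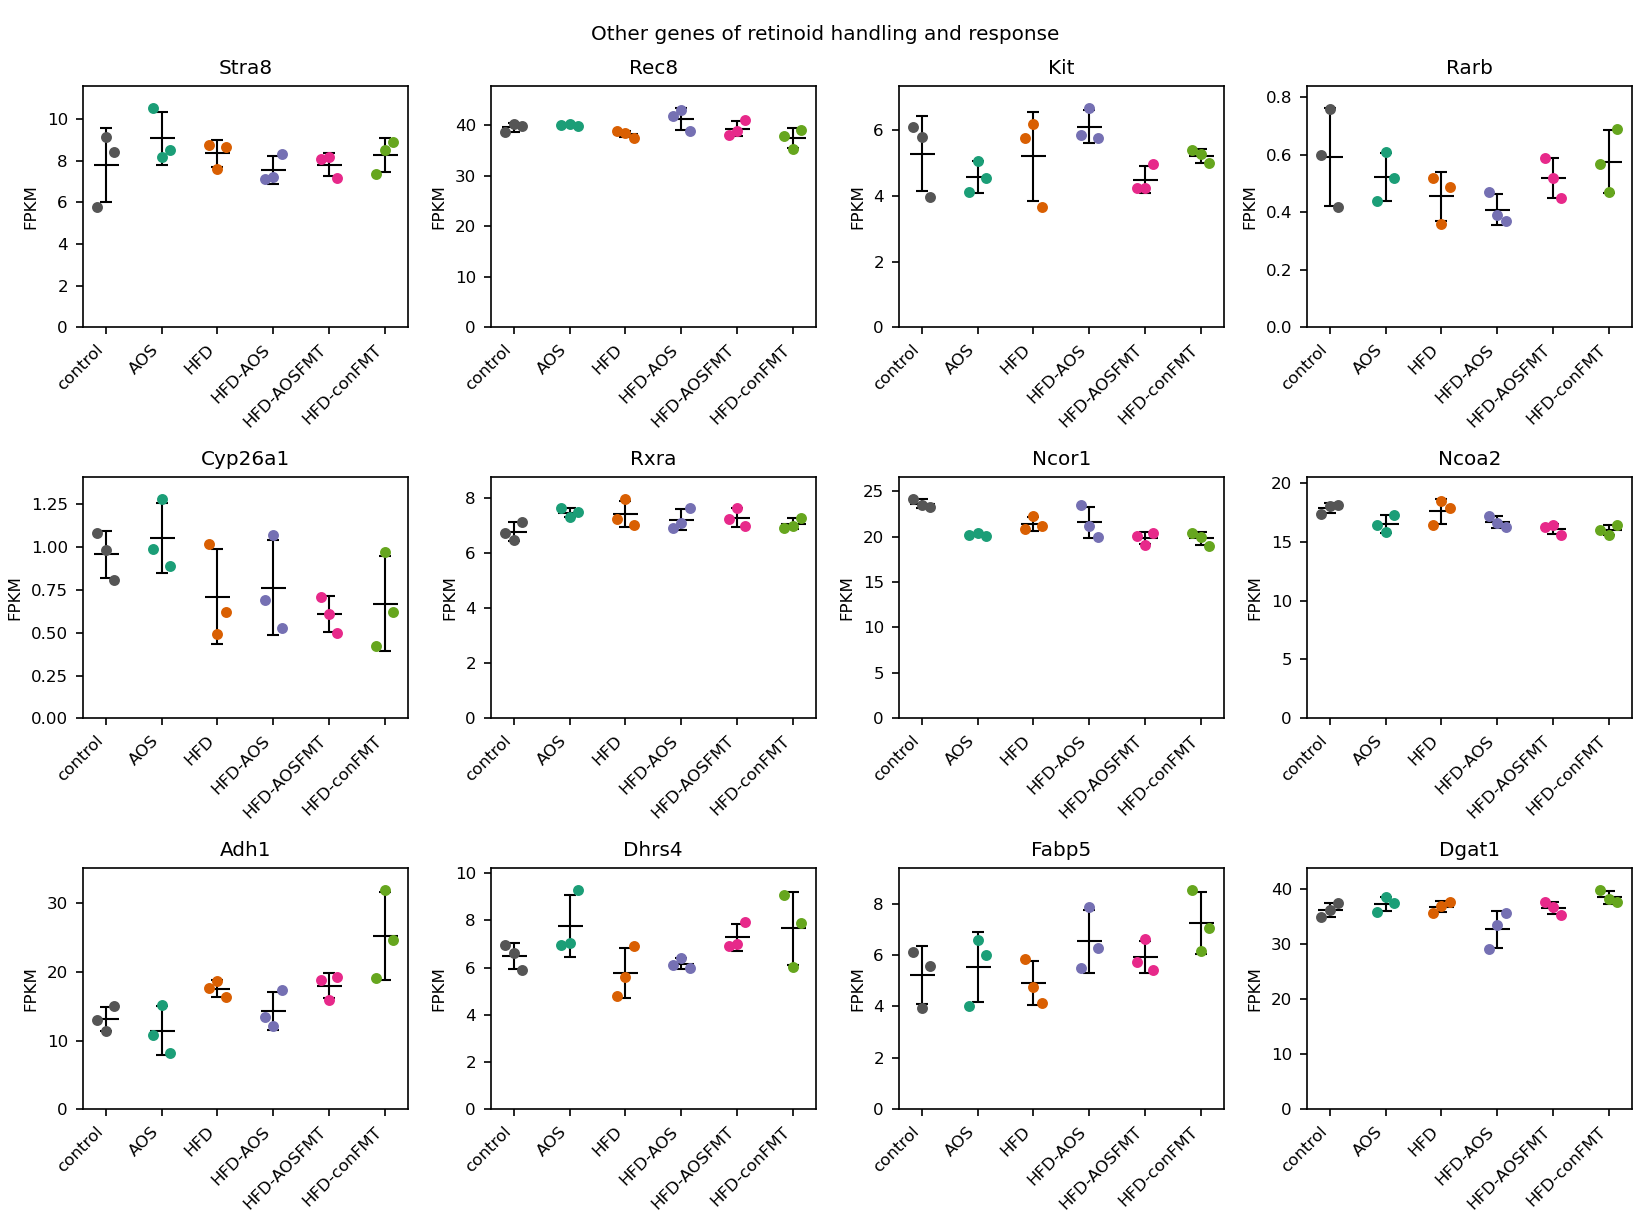
Levels of 12 further retinoid genes in FPKM (vertical axes, each from 0) by group, chosen among the named pathway genes. Points are libraries and bars the mean and 1 SD (n = 3). Stra8 group means stay between 7.55 and 9.07 FPKM. The Ncor1 libraries of the AOS, HFD and both FMT groups lie below all 3 controls.

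Receptors for retinoic acid bind pairs of hexamers. Windows of 300 bases at each RefSeq gene start, most of it before the start, were searched on both strands for a direct repeat with 5 bases between its hexamers. Each hexamer was AGGTCA, with G also allowed as the first base and T as the third. Of 32851 windows, 32, or 0.0974%, held such a repeat. The 15 windows of the 8 members with one held 0, and no window was found for Rdh10. Of the other pathway genes, 34 had windows, 47 in all, and 2 windows held one, at Rarb and Cyp26a1, which are known to be induced by retinoic acid. Both are printed 5′ to 3′ (RefSeq, GRCm38.p6), with the hexamers in capitals, since they show the kind of element that was searched for.
Rarb, chr14:16575507-16575536, minus strand: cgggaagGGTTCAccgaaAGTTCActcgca
Cyp26a1, chr19:37697770-37697799, minus strand: acaaattAGTTCAcccaaAGTTCAtcttta
Both genes had low levels, from 0.36 to 0.76 FPKM for Rarb and from 0.42 to 1.28 FPKM for Cyp26a1, under the mean needed for a test. With 2 bases between the hexamers, 88 windows, or 0.268%, matched, and 0 of them were at members. The hexamer AGGTCA alone was in 16.3% of windows and in 3 of the 15 windows of members, at Rara, Rarg and Rdh11. A match is a description of these letters in the window and not a binding site.

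The genes whose levels ran most like each member over the 18 libraries, by Pearson r on the log2(FPKM + 1) scale, were named by their r alone. For Aldh1a1 they were Dlst (r = 0.85), Rcn2 (r = 0.84) and Prrc1 (r = 0.83), and for Aldh1a2 Zbtb11 (r = 0.91), Strap and Pus10 (both r = 0.85). Ankrd24 (r = 0.84) was the nearest to Rbp4, Kmt2c (r = 0.82) to Cyp26b1 and Kat8 (r = 0.82) to Rdh11. For Rdh10, Crabp1, Rara and Rarg the highest r lay between 0.76 and 0.78, with Rbm47, Btbd16, Khsrp and Fyn. These are the highest of 13105 genes each, over libraries that share their groups.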

How the data were processed

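RNA was sequenced from frozen testis, 18 libraries in 6 groups of 3, grouped by the treatment in the labels. Mapping was with Bowtie 0.12.2 against mm10, per the submitters' processing notes. For the counting tool, the annotation and strandedness, the sources used here give nothing. A series table of 20985 rows was deposited, and its header names no unit. The deposited values were read as FPKM, since library sums differ (588081 to 637005) and low values rise in whole steps of a size taken for each gene. Whether that size follows transcript length was not tested. Rows whose symbol occurs more than once (3 symbols) were dropped. Relative depth came from 166 genes of low level, in which 80.4% of 536 values were whole multiples of the lowest step to within 0.15 (30% if evenly spread). Whole reads were not recovered for the other genes.

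The deposited FPKM were put on the log2(FPKM + 1) scale, the 13105 genes that average 1 FPKM or more over all libraries were kept, and limma 3.58.1 in R 4.3.3 was fitted with a mean-variance trend, 6 group means and 12 residual degrees of freedom. Comparisons used its moderated two-sided test, and all groups its F test, with Benjamini-Hochberg adjustment over all genes tested and a threshold of 0.05. The model was tested on simulated data. Positions came from GENCODE for GRCm38, the assembly of mm10, and promoter sequences from RefSeq (GRCm38.p6). Figures were drawn with matplotlib 3.10.9.

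The members and lists were chosen with earlier results of these data known. Named were all 9 members, and of the 47 other pathway genes any past the threshold, the 1 of smallest p in each direction of each comparison and the 1 of highest mean in each role; Stra6, Lrat, Stra8, Kit, Meiosin and Rarb were added for their roles after the values were seen. For each member, the 3 genes of highest r were found, leaving out clone names. Alternatives were another pseudocount, 2 other filters, quantile normalization, median centring, array weights, the replicate block, fits of only the 2 groups compared, a fit without control 3 and HFD-conFMT 2, and leaving out each library.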

Additional observations from a re-analysis of the deposited data

How the results depend on the processing

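Over 27 alternative settings, 1678 log2 differences of the 9 members were recomputed, of which 1605 kept their sign and 1 crossed the adjusted threshold. With array weights, 1 member (Aldh1a2) was called in AOS against control, a comparison in which 0 to 240 of all genes passed over the alternatives. The number of pathway genes called over all comparisons was 2 with array weights (Ncor1 and Adh1), and ran from 0 to 2 when each library was left out. In 72 of the 73 sign changes, both values were within their standard error of 0. The exception was Cyp26b1 in HFD-conFMT against HFD, whose value of -0.09 was just over its standard error. It ran from -0.14 to 0.0064 when each library was left out, and the sign change came without HFD 2. That library was at 5.63 FPKM, against 4.5 and 4.39 FPKM in HFD 1 and HFD 3. Why it was higher was not tested.

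Counts over all genes moved by over 1.5 times. In AOS against control 3 genes passed, and from 0 to 240 under alternatives. In HFD-AOSFMT against HFD 3 passed, and from 1 to 26. In HFD-conFMT against HFD 0 passed, and up to 17; in HFD-AOS against HFD 0, and up to 4; in HFD-AOSFMT against HFD-conFMT 1, and up to 16; in the F test 43, and from 1 to 145. With group means removed, 45 correlations between same-numbered libraries of different groups ran from -0.24 to 0.17, and 2 were over 0.1. Libraries of different numbers were not compared, so whether the replicate numbers pair the libraries was not settled. With the replicate block, 0 members were called in every comparison, and the F test called 20 genes. With 3 libraries a group and unknown absolute depth, the 95% intervals given with the values limit what could be detected.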

Other observations

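Adh1, an alcohol dehydrogenase that also oxidises retinol, had the lowest F test p of the pathway genes (limma adjusted p = 0.0974). Its mean was 13.2 ± 1.78 FPKM in control, 11.4 ± 3.57 FPKM in AOS, 17.6 ± 1.20 FPKM in HFD, 14.4 ± 2.76 FPKM in HFD-AOS, 18.02 ± 1.88 FPKM in HFD-AOSFMT and 25.2 ± 6.42 FPKM in HFD-conFMT (SD, n = 3 each). The HFD-conFMT libraries lay above all HFD libraries (log2 difference 0.47, SE 0.193, limma adjusted p = 0.360), and the difference was 0.29 without HFD-conFMT 2. In that comparison 5 of the 29 pathway genes had no overlap, against 20.2% of all genes tested. Adjusted p values of Adh1 without AOS 2 and without HFD-AOS 3 were 0.0373 and 0.0448 in the limma F test. The summed level of 5 adipocyte markers was 34.5 to 41.1 FPKM in HFD-conFMT and 16.9 to 23.5 FPKM in HFD, with 0 of the 5 at 0 in every library, and in the other groups at most 27.8 FPKM. Of these markers, Fabp4 was at 19.8, 27.4 and 19.1 FPKM in HFD-conFMT and between 0.93 and 13.2 FPKM in the other libraries, while Adipoq lay between 9.43 and 14.9 FPKM in all 18 libraries. The part of adipocytes in the Adh1 values was not tested.

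Fabp5, which can carry retinoic acid to another nuclear receptor, had a log2 difference of 0.48 between HFD-conFMT and HFD (SE 0.174; limma adjusted p = 0.313). Dhrs4, a retinal reductase, differed by 0.30 between HFD-AOSFMT and HFD (SE 0.133; limma adjusted p = 0.474), and by 0.19 without HFD 1. Ncoa2, a coactivator of nuclear receptors, was lower than in HFD in both FMT groups, which share the HFD libraries (log2 differences -0.12 and -0.13; limma adjusted p = 0.456 and 0.327).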
